A study of Mus musculus with 15 samples.

Results

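The gene module described here comprises the machinery that brings nuclear-encoded proteins into mitochondria and folds them there. Its members are the protein-coding mouse genes whose symbol is Timm or Tomm followed by a number, plus 11 named genes, Timmdc1, Pam16, Dnajc15, Dnajc19, Grpel1, Grpel2, Hspa9, Hspd1, Hspe1, Chchd4 and Gfer. The rule uses symbols only and found 36 members among the 55450 counted genes. RNA was sequenced from the gastrocnemius, a fast hindlimb muscle, of 15 C57BL/6JN female mice with no genetic modification named in the labels, all older than 17 months. Mice with at most 1 positive frailty marker (labelled robust) form the Low group and mice with 2 or more (labelled frail) the High group, where the markers were scored on body weight, a frailty index, treadmill distance, grip strength and rotarod latency. Low Control (n = 4) and High Control (n = 3) mice stayed sedentary in their cages, whereas Low Run (n = 4) and High Run (n = 4) mice ran downhill on a treadmill (22° decline, 13 m/min) in 2 bouts and are labelled 24 h. Each library is 1 mouse. Frailty was a grouping by phenotype and not a treatment, so the High and Low groups may differ in anything that goes with it.

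Nearly all mitochondrial proteins are made in the cytosol as precursors and threaded through the outer membrane by the TOM complex, in which Tomm20, Tomm22 and Tomm70a are receptors and Tomm40 forms the pore. Precursors with a cleavable presequence then cross the inner membrane through TIM23 and are pulled inward by a motor built on the Hsp70 chaperone Hspa9, carrier proteins are escorted by the small TIM chaperones to TIM22, and small cysteine-rich proteins are trapped by the Chchd4 and Gfer disulfide relay. In the matrix the Hspd1 and Hspe1 chaperonin folds many of the arrivals. Muscle is rich in mitochondria, and most of their respiratory chain subunits enter by these routes.

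The libraries held 19395125 to 30699216 counts, with a median of 25926420. Defining transcripts of the labelled tissue were abundant in every mouse, with Acta1 at 22400 to 41100 CPM (counts scaled to each library's normalised size) and Ckm, muscle creatine kinase, at 18800 to 33600 CPM. Mice D9 (Low Control) and D62 (High Run) stood apart on the first principal component of the tested genes, at -75.5 and -50.5, where the other 13 lay between -14.9 and 19.8. The fast myosin gene Myh4 was lower by value after running, by 0.48 (adjusted p = 0.358) in Low mice and by 0.44 (adjusted p = 0.956) in High mice on the log2 scale in edgeR's quasi-likelihood test. The other 3 fibre type myosin genes did not follow it, with Myh1 at -0.04 and -0.03, Myh2 at 0.12 and 0.32 and the slow Myh7 at 0.12 and 0.61 in Low and High mice. Neutrophil markers (S100a8, S100a9 and Ly6g) summed to 322 CPM in the Low Run mouse D68 and to at most 46.8 CPM in any other mouse. Brown adipocyte Ucp1 was at 0 to 0.139 CPM. The part of these differences in the results below was not tested, and in bulk muscle fewer cells of a type cannot be told apart from less RNA per cell.

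Of the 36 members, 34 passed the count filter. Tomm20l, a paralog of the receptor Tomm20, had 0 counts in all 15 mice, and Timm8a2 had at most 1 count in any mouse and 0 in 13 of them. Per kilobase of exonic sequence, the mean level over all mice was highest for the small TIM chaperone Timm8b at 132 CPM per kb and for the motor Hsp70 Hspa9 at 128 CPM per kb, which do not differ beyond the spread between mice. These 2 were followed by Timm13 (49.3 CPM per kb), the small TOM subunit Tomm7 (43.4 CPM per kb) and the chaperonin Hspd1 (43.2 CPM per kb), whose order among themselves lies within the spread between mice. The TIM23 pore gene Timm23 was at 7.59 CPM per kb and the carrier translocase gene Timm22 at 10.8 CPM per kb. The lowest of the 34 were the motor subunit Pam16 at 0.534 CPM per kb and Tomm6 at 0.558 CPM per kb. For Tomm6, 76% of the exonic bases are shared on the same strand with the annotated gene Gm21981, so that its 8 to 36 counts per mouse may be an undercount.

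Some paralogs differed in their counts. Timm17a exceeded Timm17b in CPM by a ratio of 4.29 ± 0.692 in Low Control and 3.34 ± 0.492 in Low Run mice (SD, n = 4 each), 3.41 ± 0.219 in High Control (n = 3) and 3.42 ± 0.718 in High Run mice (n = 4). These ratios are per library and not per length, and the Timm17a gene model is the longer (7893 against 2557 exonic bases). Per kilobase the means over all mice were 13.3 for Timm17a and 11.7 CPM per kb for Timm17b. The nucleotide exchange factor Grpel1 exceeded its paralog Grpel2 by 4.17 to 4.89 in the group means, and the J-domain gene Dnajc15 exceeded Dnajc19 by 3.48 to 3.9. Per kilobase, Grpel1 was at 23.3 against 2.65 CPM per kb and Dnajc15 at 8.13 against 3.63 CPM per kb. Tomm40 and its paralog Tomm40l were at 9.81 and 9.92 CPM per kb in the mean over all mice, and their ratio in CPM was 2.31 in D62, 1.48 in D9 and 0.645 to 1.02 in the other 13 mice.

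The members differed widely in how constant they were between mice. Within groups, the SD of log2(CPM + 0.5) ran from 0.0932 for the motor scaffold gene Timm44 to 0.377 for Tomm40l, with a median of 0.225 over the 34 members. Timm44 spanned only 63.9 to 77.9 CPM over all mice, a ratio of 1.22. Timm22 spanned 15.7 to 43.1 CPM, a ratio of 2.75, and its lowest value was in D9.

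**Figure D1:**
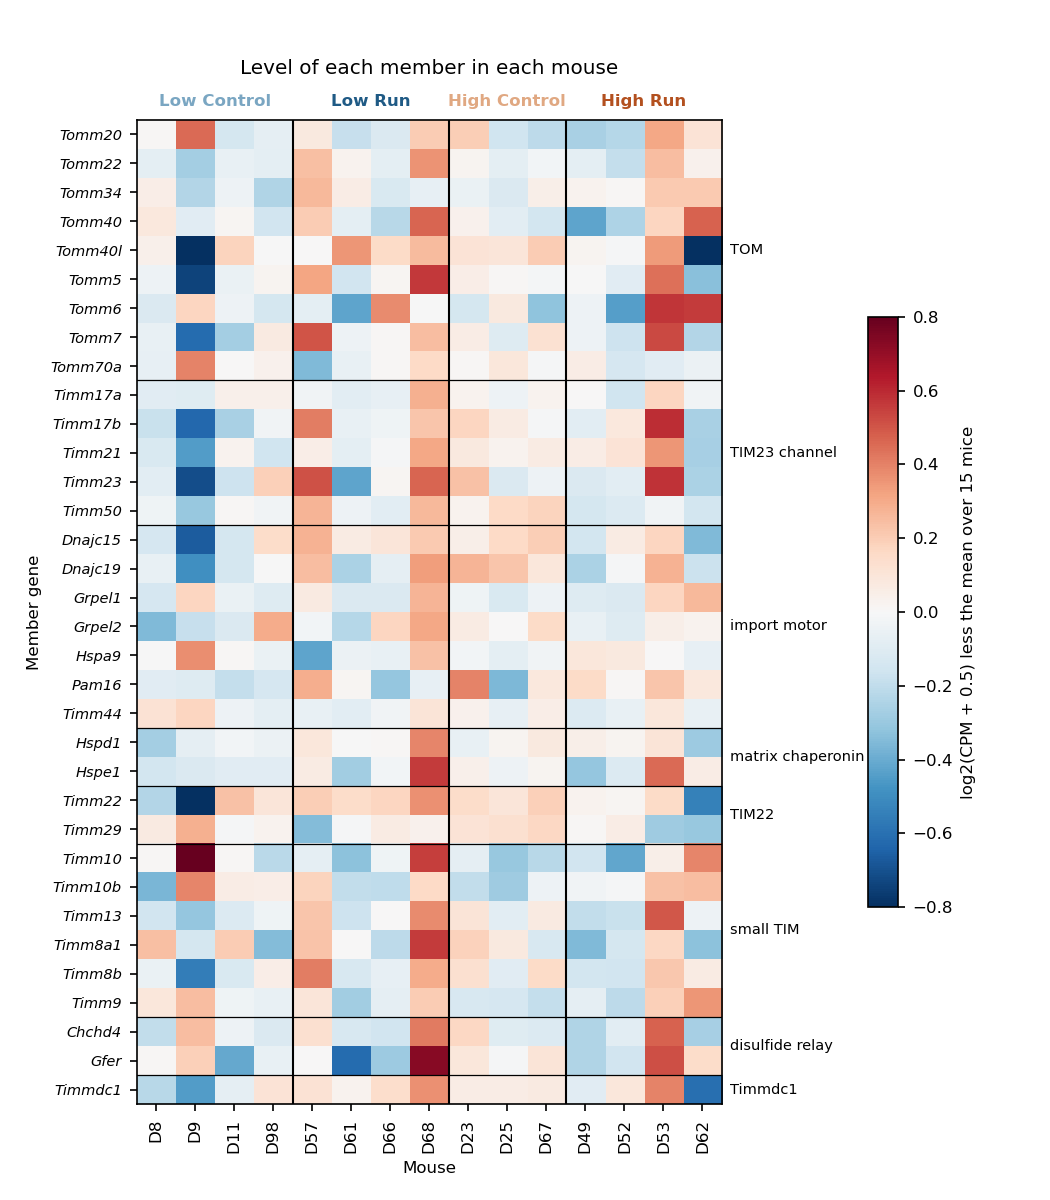
Heat map of log2(CPM + 0.5) for the 34 members that passed the count filter (rows, grouped by role) in each of the 15 mice (columns, grouped as labelled), less the mean of each member over all mice. Mouse D9 holds the lowest value of 12 members and the highest of 7, while D68 and D53 hold the highest of 11 and 8.

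Much of the variation followed single mice. D68 (Low Run) had the highest level of 11 members and D53 (High Run) of 8, and in each of these mice 31 of 34 members were above their median over all mice. D9 (Low Control) was unlike both, with the lowest level of 12 members and the highest of 7. The 12 included all of TIM23 except Timm17a, the carrier translocase gene Timm22, both J-domain genes Dnajc15 and Dnajc19 and the TOM subunits Tomm5, Tomm7 and Tomm22. The 7 were the presequence receptor Tomm20, the carrier receptor Tomm70a, the motor genes Hspa9 and Timm44, the small TIM genes Timm10 and Timm10b, and Timm29.

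In Low mice, 26 of the 34 tested members had a higher level after downhill running, with a median log2 fold change of 0.19, against 51.9% above 0 and a median of 0.02 among all 16920 tested genes. Leaving out 1 mouse of the Low groups at a time put the median of the members between 0.08, without D68, and 0.25. This median was 0.07 in voom, 0.11 with length and GC offsets and 0.26 with upper quartile scaling. The size of each difference was small and the intervals wide. The half-width of the 95% interval was 0.36 on the log2 scale at the median member, above the median difference itself. No member passed an FDR of 0.1, and neither did any other gene in edgeR (0%). With the threshold at an unadjusted p under 0.05, 1 member was higher (5.92% of all genes were) and 0 were lower (7.52% of all genes). The count of 1 became 0 without D8, D9, D57, D68 or D52, 2 without D66, 3 without D62 and 5 without D61, D98 or D53. The share of all genes at this threshold was not counted in these refits, so a rise in the count is not read as a response of the members. D52, D53 and D62 are High Run mice, which enter this comparison only through the count filter, the scaling and the spread that all groups share. DESeq2 called 11 genes and voom with quality weights 0 at the same FDR in this comparison, and 0 of these were members.

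The member past the unadjusted threshold was Timm17b (chrX:7899357-7908351, plus strand, GRCm38), one of 2 alternative subunits beside the TIM23 pore. Its level was 25.9, 18.8, 24.4 and 28.8 CPM in Low Control mice and 39.1, 28.2, 28.6 and 34.3 CPM in Low Run mice. The ranges overlapped only by the highest control, which lay just above the 2 lowest runners. The log2 fold change was 0.41 (SE 0.185, 95% interval 0.02 to 0.81, adjusted p = 0.362, edgeR), and the exact permutation test of 4 against 4 mice, two-sided, gave p = 0.0857. The unadjusted p was above 0.05 with offsets for gene length and GC content (0.29) and in voom (0.25). It was also above 0.05 when D8 (0.44), D9 (0.29), D11 (0.40), D57 (0.31), D68 (0.38) or D52 (0.40) was left out alone, and without D9 and D62 together (0.29). The same gene was at 33.1, 30.8 and 29.2 CPM in High Control and at 27.7, 31.1, 44.5 and 24.4 CPM in High Run mice. The log2 fold change in High mice was 0.04 (SE 0.199), or -0.16 without D53 and 0.14 without D62.

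Only Hspd1, the large subunit of the matrix chaperonin, separated the Low groups completely (3.35% of all genes did so upward, and 0 members but 3.59% of all genes downward). Hspd1 (chr1:55077835-55088243, minus strand) was at 94.1, 108, 112 and 110 CPM in Low Control and at 121, 113, 114 and 149 CPM in Low Run mice. Every runner thus lay above every control, although 2 runners did so by little, and the highest was D68. Its log2 fold change was 0.23 (SE 0.127, adjusted p = 0.411), and the exact permutation p was 0.0286, the smallest that 4 against 4 mice can give. Complete separation always gives this p, which therefore repeats the separation and adds no support. The log2 fold change was 0.11 with length and GC offsets and 0.12 without D68. It was the only one of 34 permutation tests of members in Low mice to fall under 0.05.

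In High mice no shared direction was seen. After running, 20 of 34 members were above 0 (57.2% of all genes) with a median log2 fold change of 0.02 (0.05 over all genes). The count was 18 with RLE scaling, 9 with length and GC offsets and 7 in voom, where the median was -0.09. There were 0 members higher (3.28% of all genes) and 0 lower (1.90%) at an unadjusted p under 0.05, and 0 genes of any kind passed the FDR in edgeR (0%). DESeq2 called 15 and voom 45 genes at that FDR, none of them a member. Leaving out D53 moved the median to -0.12, with 9 of 34 members above 0, and leaving out D25 to -0.03, with 14. Leaving out D52 gave 1 member at an unadjusted p under 0.05.

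Of the members, 3 separated the High groups without overlap. Timm10b, a small TIM chaperone (chr7:105640056-105643637, plus strand), was higher, as were 3.47% of all genes. It was at 7.03, 6.57 and 7.9 CPM in High Control and at 7.98, 8.07, 9.67 and 9.76 CPM in High Run mice. The log2 fold change was 0.31 (SE 0.187, adjusted p = 0.956). Timm29 and Timm50 were lower, as were 3.60% of all genes. Timm29, a TIM22 subunit (chr9:21592722-21595970, plus strand), was at 101, 102 and 105 CPM in High Control and at 94, 97.6, 76.6 and 75.7 CPM in High Run mice. D53 and D62 were the 2 lowest runners, and the difference was -0.26 (SE 0.14, adjusted p = 0.956) on the log2 scale. With length and GC offsets Timm29 was at -0.31 and Timm50 at -0.28, both at an unadjusted p under 0.05, unlike Timm10b at 0.27. Timm50 was also under 0.05 in voom, and none of these passed an FDR of 0.1. For each of the 3 genes the exact permutation p was 0.0571, the smallest that 3 against 4 mice allow in this two-sided test, so it could not have fallen under 0.05.

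**Figure D2:**
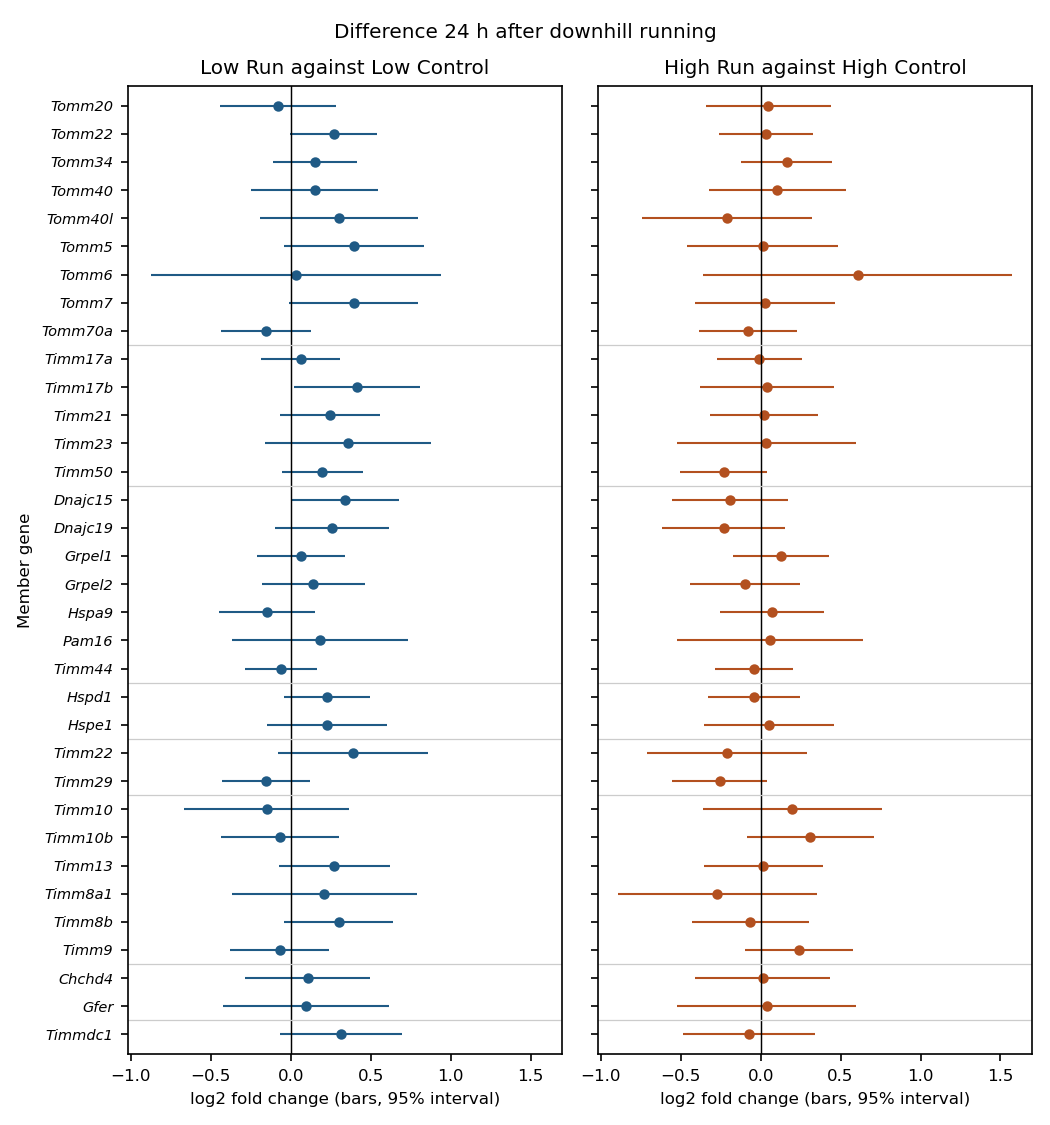
Log2 fold change after downhill running for each of the 34 tested members (rows, grouped by role) in Low mice (left) and High mice (right), with points for the estimate and bars for the 95% interval from edgeR. In Low mice 26 points lie right of 0 but only the interval of Timm17b excludes 0, and in High mice 20 lie right of 0 and every interval includes 0.

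The Frailty × Run interaction asks whether the response to running differed between High and Low mice. A negative value means a lower response in High mice. The interaction was above 0 for 10 of 34 members (53.1% of all genes), with a median of -0.20 against 0.03 over all genes. The median was -0.30 without D53 and -0.12 without D9 and D62 together. The 5 skeletal muscle fibre markers were also below 0 in the interaction by value. Acta1 was at -0.45, Ckm at -0.44, Mb at -0.35, Tnnt3 at -0.23 and Tnni2 at -0.07 (adjusted p = 0.608 to 0.943). In the same order they were at 0.19, 0.14, 0.35, 0.06 and 0.03 in Low mice. In High mice they were at -0.26, -0.30, 0.01, -0.18 and -0.04. Their part in the values of the members was not tested. Of the members, 2 were lower (2.69% of all genes) and 0 higher (5.24%) at an unadjusted p under 0.05, and 0 genes passed the FDR in edgeR (0%). DESeq2 called 1 gene and voom 0, none a member. The count of 2 became 7 without D53, 3 without D11 or D61, 1 without D9, D49 or D62, and 0 without D57, D68, D25 or D67. Here too, the share of all genes was not counted in the refits. The difference was above 0 in Low mice and below 0 in High mice for 11 members, above 0 in both for 15, below 0 in both for 3 and the opposite of the first pattern for 5.

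Timm50, the TIM23 receptor for presequences (chr7:28305516-28312072, minus strand), had the smallest interaction p of the members. It was at 41.4, 34.3, 42.6 and 41.6 CPM in Low Control and at 51.2, 41.2, 40 and 50.8 CPM in Low Run mice. In High Control mice it was at 43.3, 47.4 and 48 CPM and in High Run mice at 38.4, 39.3, 41.6 and 38.3 CPM. Low Run mice thus fell into 2 high and 2 that sat among the controls, whereas all 4 High Run mice were below the 3 High Controls. The log2 fold change was 0.20 (SE 0.119, adjusted p = 0.437) in Low and -0.23 (SE 0.128, adjusted p = 0.956) in High mice, and the interaction was -0.43 (SE 0.174, 95% interval -0.80 to -0.06, adjusted p = 0.6, edgeR). The Low value was 0.12 without D9. Leaving out 1 mouse at a time kept the interaction between -0.48 and -0.36. The unadjusted p was above 0.05 without D57 (-0.37), D68 (-0.37), D25 (-0.41) or D67 (-0.40), and also without a count filter (-0.44).

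Dnajc15 (chr14:77820681-77875125, minus strand) encodes an inner membrane J-domain protein that stimulates Hspa9. It was at 47.6, 32.8, 47.3 and 58 CPM in Low Control and at 63.5, 54.6, 56 and 60.4 CPM in Low Run mice. In High mice it was at 54.1, 58.4 and 60.1 CPM when sedentary and at 47.2, 54.6, 58.9 and 40.8 CPM after running. The groups overlapped in both frailty strata, and the lowest values of all were in D9 and D62. The interaction was -0.53 (SE 0.233, 95% interval -1.02 to -0.03, adjusted p = 0.6, edgeR), and -0.39 without D9 and -0.30 without D9 and D62. The unadjusted p was above 0.05 in both of these fits and when D57 (-0.49), D68 (-0.51), D25 (-0.52), D67 (-0.50), D49 (-0.50) or D62 (-0.44) was left out alone. Its paralog Dnajc19 had an interaction of -0.49 (SE 0.246, adjusted p = 0.6).

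**Figure D3:**
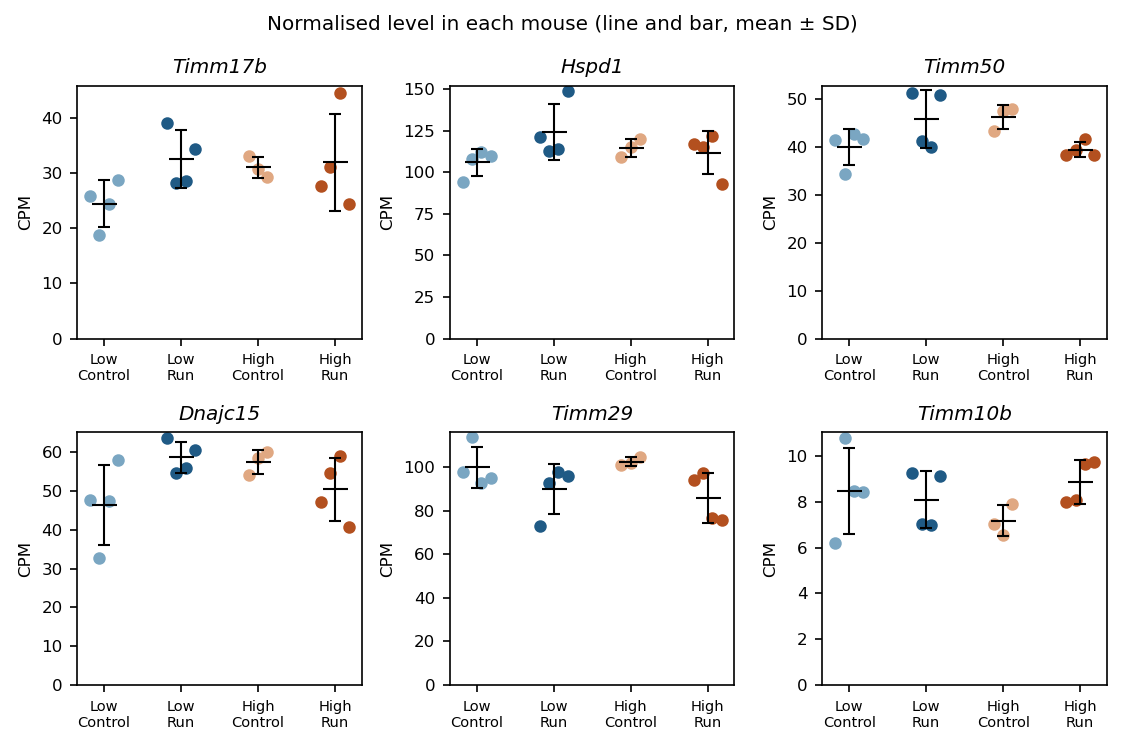
Normalised level (CPM, vertical axes from 0) of 6 members in each mouse of the 4 groups, with a short line and bar for the mean ± SD (n = 4, 4, 3 and 4). All 4 High Run mice lie below the 3 High Control mice for Timm50 and Timm29 and above them for Timm10b, and all 4 Low Run mice lie above Low Control for Hspd1.

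By role, TOM members were split. Of the 9 tested, 7 were above 0 in Low mice with a median of 0.15. The small subunits Tomm5 and Tomm7, which stabilise the pore complex, had log2 fold changes of 0.39 (adjusted p = 0.392) and 0.39 (adjusted p = 0.376), and the central receptor Tomm22 of 0.27 (adjusted p = 0.372). With length and GC offsets Tomm22 was at 0.13, Tomm5 at 0.27 and Tomm7 at 0.27. Without D9 or without D68, Tomm5 was at 0.23 or 0.24 and Tomm22 at 0.21 or 0.18. The receptors Tomm20 and Tomm70a were at -0.08 and -0.15 (adjusted p = 0.842 and 0.576). Tomm22 was at 40.7, 35.6, 41.4 and 40.8 CPM in Low Control and at 51, 44, 40.7 and 55.4 CPM in Low Run mice, so that 1 of the runners was no higher than the controls. In High mice Tomm22 differed by 0.04 and Tomm7 by 0.03, and without D53 by -0.05 and -0.17. Without D52 both differed by 0.09, and without D62 Tomm22 differed by 0.02 and Tomm7 by 0.10. Tomm40, the pore itself, was at 0.15 in Low (adjusted p = 0.707) and 0.10 in High mice (adjusted p = 0.976). Its paralog Tomm40l overlaps Nr1i3 over 64.3% of its exonic bases on the opposite strand, which counting by strand leaves out, and its lowest levels were 27.7 CPM in D9 and 26.2 CPM in D62 against 49.2 CPM or more elsewhere.

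All 5 TIM23 channel members were above 0 in Low mice, from 0.06 for Timm17a to 0.41 for Timm17b, with a median of 0.24. With length and GC offsets the median was 0.18 and all 5 stayed above 0, but without D68, the mouse with the highest level of Timm17a among Low Run mice, Timm17a was at -0.04. Timm23 itself was at 12.4, 7.87, 11.7 and 15.1 CPM in Low Control and at 19, 9.73, 13.3 and 18.4 CPM in Low Run mice, with overlap, and had a log2 fold change of 0.36 (SE 0.245, adjusted p = 0.484), or 0.20 with the offsets and 0.20 without D9. The interaction was below 0 for all 5, with a median of -0.32, although that of Timm17a was 0.03 without D68. The 7 import motor members were mixed, 5 above 0 in Low and 3 in High mice. Hspa9, the most abundant member in CPM, was at 546, 710, 550 and 527 CPM in Low Control and at 409, 529, 525 and 643 CPM in Low Run mice. Its log2 fold change was -0.15 (SE 0.141, adjusted p = 0.613) in Low and 0.07 (SE 0.152, adjusted p = 0.977) in High mice. The Low value was -0.05 without D9 and -0.27 without D68.

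The carrier route gave both signs. Timm22, the carrier translocase, was at 28.3, 15.7, 39.4 and 35.8 CPM in Low Control and at 38.3, 37, 37.7 and 43.1 CPM in Low Run mice, a log2 fold change of 0.39 (SE 0.22, adjusted p = 0.418), or 0.17 without D9. Its interaction was the largest in size among the members in edgeR without offsets, at -0.60 (SE 0.323, adjusted p = 0.6), and D9 and D62, at 15.7 and 22.8 CPM, were its lowest mice. With length and GC offsets it was -0.57, and Tomm6 (0.65), Tomm40l (-0.60) and Dnajc15 (-0.60) were larger in size. The interaction of Timm22 was -0.38 without D9 and -0.25 without D9 and D62 together. Timm29 differed by -0.15 in Low mice. Of the 6 small TIM chaperones tested, 3 were above 0 in Low and 4 in High mice. Timm8b and Timm13 were at 0.30 (adjusted p = 0.399) and 0.27 (adjusted p = 0.433) in Low mice. Timm9 and Timm10, the core carrier chaperones, were at -0.07 and -0.15 in Low mice. With length and GC offsets Timm8b was at 0.16, Timm13 at 0.11 and Timm10 at -0.33. In High mice Timm9 and Timm10 were at 0.24 (adjusted p = 0.956) and 0.20 (adjusted p = 0.965). The 2 disulfide relay genes differed by little, Chchd4 by 0.11 and 0.01 and Gfer by 0.10 and 0.04 in Low and High mice, although Gfer was at 78.7 CPM in D68 and 68 CPM in D53 against 30.7 to 54.1 CPM elsewhere. Timmdc1, an assembly factor of respiratory complex I with homology to the TIM23 family, was at 0.31 (adjusted p = 0.419) in Low and -0.07 (adjusted p = 0.983) in High mice, and the Low value was 0.16 with the offsets.

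Hspd1 and Hspe1, the 2 chaperonin subunits, lie head to head on chromosome 1, and their promoter windows share 285 bases. The stretch below is shown because the windows of both genes hold it. The RefSeq promoter table (GRCm38.p6) holds windows of 300 bases, from 250 before to 50 after the start, for 31 of the 36 members. The table was not matched for Timm21, Tomm40l, Tomm7, Grpel2 and Hspa9. Each window was searched on both strands for the cores of the heat shock element, GAANNTTC and TTCNNGAA, of which 3 and 9 members held at least 1 (7.86% and 8.52% of all 32851 windows, 5.8% and 7.09% of those of tested genes). A member was counted if any of its windows held a core, whereas the shares are per window. The matches of Hspd1 and Hspe1 lie on the same bases and count for both genes, which raises the member counts. Hspd1, Hspe1 and Timm9 held both cores. Their overlapping matches are given in capitals, 5′ to 3′ on the strand of the named gene.
Hspe1, chr1:55088055-55088080, plus strand: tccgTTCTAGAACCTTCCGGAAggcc
Timm9, chr12:71136858-71136883, minus strand: taggctTTCTAGAAATTTCgacagat
The Hspe1 stretch starts 93 bases before the start of that gene and holds 3 overlapping cores, the last of which also overlaps the GABP core described below, and the Timm9 stretch starts 208 bases before its own and holds 2. The NRF-1 core GCGCATGC was found for Grpel1 and Timm13 (2.71% of all windows and 4.58% of those of tested genes), on the minus strand of the window for Timm13, and is in capitals below.
Grpel1, chr5:36465141-36465164, plus strand: gggcgtccGCGCATGCtcagtgtg
Timm13, chr10:80901146-80901169, minus strand: tattgtacGCATGCGCagcgggga
The GABP core CCGGAAG was found for 13 members (8.86% of all windows and 15.6% of those of tested genes). A match is a string of letters and was not tested for binding.

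The 2 chaperonin genes did not move in step in every mouse. Hspe1 was at 28.9, 29.5, 30 and 30.1 CPM in Low Control and at 33.5, 26.3, 31.6 and 47.4 CPM in Low Run mice, so that the groups overlapped through D61 alone. Its log2 fold change was 0.23 (SE 0.177, adjusted p = 0.536), close to that of Hspd1, but 0.08 with length and GC offsets and 0.03 without D68. In High mice it was at 32.9, 31.1 and 32.5 CPM when sedentary and at 25.8, 29.7, 44.1 and 33.4 CPM after running, and differed by 0.05 (SE 0.191), or by -0.11 without D53. The ratio of Hspd1 to Hspe1 in CPM was 3.58 ± 0.218 in Low Control and 3.58 ± 0.217 in High Control mice, and 3.67 ± 0.479 in Low Run and 3.48 ± 0.859 in High Run mice (SD). The SD was larger in both groups of runners, and this was not tested.

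Between sedentary mice, 24 of 34 members were higher in High Control than in Low Control (47.2% of all genes), with a median log2 difference of 0.11 against -0.02. At an unadjusted p under 0.05, 0 members were higher (1.80% of all genes) and 0 lower (4.06%), and 0 genes passed the FDR in edgeR (0%), where DESeq2 called 2 and voom 0 genes. The groups did not overlap for 4 members that were higher (5.13% of all genes), Timm17b, Timm50, Dnajc19 and Hspe1, and for 1 that was lower (5.27%), Timm9. Dnajc19 was at 13.8, 10.1, 13 and 14.4 CPM in Low Control and at 17.5, 16.9 and 15.4 CPM in High Control mice, a log2 difference of 0.38 (SE 0.18, adjusted p = 0.704). Timm9 was at 21.6, 24.1, 19.8 and 19.4 CPM in Low Control and at 18.5, 18.4 and 17.7 CPM in High Control mice, a log2 difference of -0.22 (SE 0.159, adjusted p = 0.709). Low Control mice enter this comparison, the Low run comparison and the interaction alike, so D9 enters all of them. Without D9 the median of the members in sedentary mice was 0.07, with 27 of 34 above 0. The 0 members at an unadjusted p under 0.05 became 2 without D98 and 1 without D53 or D61.

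After running, 10 of 34 members were higher in High Run than in Low Run mice (52.2% of all genes), and the median log2 difference was -0.07 against 0.01. At an unadjusted p under 0.05, 0 members were higher (1.52% of all genes) and 0 lower (0.987%), and 0 genes passed the FDR in edgeR (0%), DESeq2 or voom. The groups overlapped for every member, whereas 0.721% of all genes were higher and 0.774% lower without overlap. Timm50 came closest, at -0.22 (SE 0.119, adjusted p = 0.999). Without D68 the median was 0.02, with 18 of 34 members above 0, and without D61 and without D53 it was -0.16. Leaving out D66 gave 1 member at an unadjusted p under 0.05.

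The respiratory chain list, 98 nuclear genes chosen by symbol prefixes of complexes I to IV and ATP synthase, was set beside the members because its products are imported. The prefixes also match assembly factor genes (Ndufaf and Sdhaf), so the list is not one of subunits only. Of the 95 tested, 94 were above 0 in Low mice (51.9% of all genes, median of the list 0.26) and 22 in High mice (57.2% of all genes, median -0.08), and the interaction was above 0 for 4 (53.1% of all genes, median -0.35). Between sedentary mice 92 of the 95 were higher in High Control (47.2% of all genes, median 0.21), or 89 with a median of 0.12 without D9, and after running 7 were higher in High Run (52.2% of all genes, median -0.13), a median that was -0.02 without D62, -0.06 without D68 and -0.28 without D53. Of the 95, 10 were higher in Low mice (5.92% of all genes) and 9 had a lower interaction (2.69%) at an unadjusted p under 0.05. The 10 became 1 without D9, 1 without D68 and 20 without D53. The 9 became 51 without D53, 4 without D9, 3 without D62, 1 without D68 and 1 without D9 and D62 together. No share of all genes was counted in these refits to set beside the list. The Low median of the list was 0.16 without D9, 0.17 without D68 and 0.14 with length and GC offsets, and its interaction median was -0.47 without D53 and -0.15 without D9 and D62. In High mice the list median stood near 0 without D62, with 47 above 0, and was -0.21 without D53, with 6 above 0. With all mice, the medians of the members in the Low run, High run and interaction comparisons were smaller in size, at 0.19, 0.02 and -0.20. No test of the difference between the lists was run.

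Per mouse, the mean deviation of the members on the log2 scale was -0.08, -0.15, -0.05 and -0.03 in Low Control mice and 0.12, -0.11, -0.03 and 0.30 in Low Run mice. It was 0.06, -0.03 and 0.02 in High Control mice and -0.09, -0.09, 0.25 and -0.07 in High Run mice. D53 was far above the other High Run mice, whereas the Low Run mice were spread out, with D68 highest and D57 next. The groups overlapped in both run comparisons. Without D68 the median log2 fold change of the members in Low mice was 0.08, with 22 of 34 above 0, and without D9 it was 0.15, with 29 of 34 above 0. Without both D9 and D62 it was 0.15, with 29 above 0. The respiratory chain list placed D9 and D62 lowest, at -0.41 and -0.33, whereas the members placed D62 at -0.07.

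**Figure D4:**
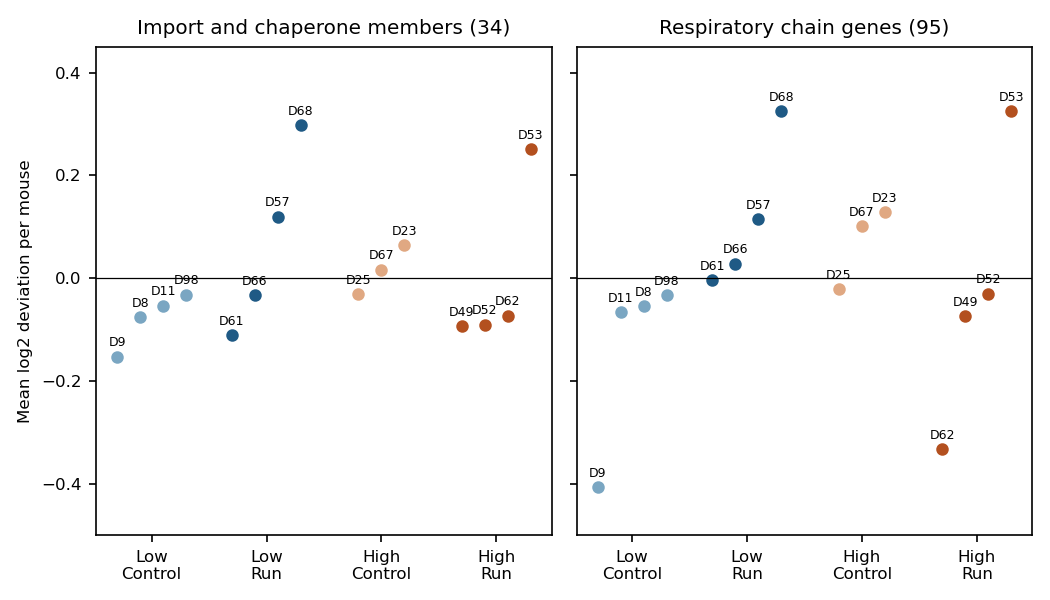
Mean over genes of log2(CPM + 0.5) less the mean of each gene over 15 mice, for the 34 members (left) and 95 respiratory chain genes (right), 1 labelled point per mouse in each group. D68 and D53 are the highest mice in both panels, and D9 and D62 are the lowest for the respiratory chain, at -0.41 and -0.33.

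The difference in Low mice went with the length of the transcript. Over the 34 members the Spearman correlation of the Low run log2 fold change with exonic length was -0.373, and over 16901 tested genes it was -0.312. Both are across genes, which share the same 8 libraries, and are given as descriptions. Of the 17 members below the median length of 3105 bases, 16 were above 0, with a median of 0.23, and of the 17 longer members 10 were, with a median of 0.06. In High mice the correlation was -0.169 over members and -0.0261 over all genes. With offsets per mouse for length and GC content, the Low run median of the members was 0.11, with 23 above 0, and that of the interaction -0.15. The cause of the relation with length was not tested.

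**Figure D5:**
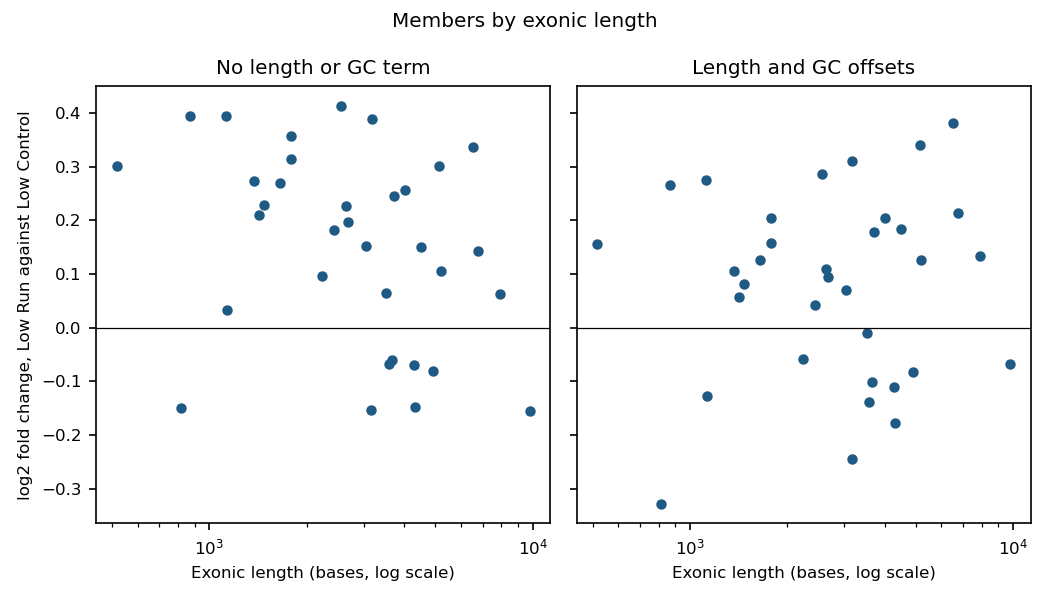
Log2 fold change in Low mice after running (vertical axis) against exonic length in bases (horizontal log axis) for the 34 tested members, 1 point each, without (left) and with (right) offsets for length and GC content. Of the 17 shorter members 16 lie above 0 on the left, against 10 of the 17 longer ones.

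Neighbouring parts of the pathway were counted from lists of genes that are not members. Of 15 further import and insertion genes, among them the outer membrane sorting gene Samm50 and the carrier insertion partner Agk, 13 were above 0 in Low and 8 in High mice, with medians of 0.10 and 0.01. With length and GC offsets these were 11 and 5, with medians of 0.18 and -0.03. Of the 15, only the iron-sulfur co-chaperone gene Hscb was higher in Low mice at an unadjusted p under 0.05 (5.92% of all genes), by 0.34 (adjusted p = 0.367). Of 17 presequence processing and protease genes, 8 were above 0 in Low and 7 in High mice, and 1 was lower in Low mice at that threshold (7.52% of all genes), the aminopeptidase gene Xpnpep3. Xpnpep3 was at 9.85, 15.1, 11.5 and 12.3 CPM in Low Control and at 7.86, 10.8, 10.1 and 7.17 CPM in Low Run mice. In High mice it was at 7.72, 9.75 and 8.81 CPM when sedentary and at 13, 12.3, 9 and 12.3 CPM after running. It was therefore low in Low Run and High Control and high in the other 2 groups, with 1 or 2 mice of overlap in each run comparison. Its log2 fold change was -0.44 (adjusted p = 0.358) in Low and 0.41 (adjusted p = 0.956) in High mice, with an interaction of 0.85 (SE 0.261, adjusted p = 0.6), each at an unadjusted p under 0.05. The presequence peptidase gene Mipep had an interaction of -0.46 (adjusted p = 0.6) and was lower by value in High mice, at -0.37 (adjusted p = 0.956). Both were at an unadjusted p under 0.05. At that threshold only Xpnpep3 of the 17 was higher in High mice (3.28% of all genes) and in the interaction (5.24%). Only Mipep was lower in High mice (1.90%) and in the interaction (2.69%).

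The 3 other mitochondrial chaperone genes, Trap1, Dnaja3 and Clpb, were at -0.07, 0.17 and -0.05 in Low mice, with an adjusted p of 0.534 to 0.894, and at -0.20, -0.12 and -0.26 in High mice, with an adjusted p of 0.956 to 0.965. With length and GC offsets their Low median went from -0.05 to 0.13, with 2 of 3 above 0, and their High median from -0.20 to -0.27. Of 11 cytosolic chaperone genes, 9 were above 0 in Low and 4 in High mice, and with length and GC offsets 6 were in Low mice, where the median went from 0.12 to 0.05. Only Dnajb1 of these had an interaction at an unadjusted p under 0.05 (2.69% of all genes were lower), at -0.73 (adjusted p = 0.6). For the mitochondrial and integrated stress response, 9 of 11 genes passed the count filter, 5 were above 0 in Low and 5 in High mice, and the medians were 0.04 and 0.02. With the offsets 3 were above 0 in each, and the medians were -0.11 and -0.04. Fgf21 and Gdf15, hormones known to be induced by mitochondrial stress in muscle, did not pass the filter and were at most 0.619 and 0.497 CPM in any mouse. The regulator gene Atf4 was at 420 CPM in D9 and 331 CPM in D62, against 110 to 211 CPM in the other mice, and only Trib3 had an interaction at an unadjusted p under 0.05 (5.24% of all genes were higher), at 1.15 (adjusted p = 0.6).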

How the data were processed

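PolyA RNA of 15 gastrocnemius muscles was sequenced. The authors aligned reads to mm10 with STAR 2.7.9a and counted them with featureCounts on the sense strand. The deposited counts are whole numbers per Ensembl gene. The second deposited table, on a variance-stabilized scale, was not used. Groups came from the titles, with robust read as Low and frail as High.

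Counts were filtered with filterByExpr, scaled by TMM and fitted with edgeR 4.0.16 (R 4.3.3, quasi-likelihood, 1 mean per group, all mice), and p-values were adjusted by Benjamini-Hochberg over 16920 genes at an FDR of 0.1. CPM used the same scaling. Exact permutation tests of log2(CPM + 0.5) used SciPy 1.17.1. The alternatives were DESeq2 1.42.0, voom with quality weights (limma 3.58.1), RLE and upper quartile scaling, other filters, only the groups compared, loess offsets (span 0.3) for length and GC, and each mouse left out. Scripts were tested on simulated data. Gene models were GENCODE M21 on GRCm38, which named 55190 genes.

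Members with an unadjusted p under 0.05 are described by mouse, as are 1 or more per role and those whose groups did not overlap. The members and lists were chosen with earlier results of these data known.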

Additional observations from a re-analysis of the deposited data

Results flagged for a closer look

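In groups of 4 mice, a value was singled out where the gap between the most extreme mouse and its neighbour took up more of the range than Dixon's 95% limit. Of 129 such checks on members, roles and the respiratory chain list, 8 did, where chance gives about 1 in 20. Of these, 5 were D9 among Low Control mice. Its share of the range was 0.910 for the respiratory chain score (-0.41 against -0.07 to -0.03), 0.865 for Timm50, 0.881 for Tomm22, 0.909 for Tomm5 and 0.860 for Hspa9, the last as the highest mouse and the others as the lowest. D53 stood above the other High Run mice in the score of the members, at 0.25 against -0.09 to -0.07, with a share of 0.940. D98 stood above the other Low Control mice in the import motor score, at 0.01 against -0.10 to -0.09 (0.917), and D68 above the other Low Run mice for Timm17a (0.861).

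In edgeR's interaction test, 2 of 34 members were lower at an unadjusted p under 0.05 (2.69% of all genes) and 0 higher (5.24%). The 2 were Timm50 at -0.4283 and Dnajc15 at -0.5283 on the log2 scale. Neither passed an FDR of 0.1 (0.6 for both), and the count was 0 without D57, D68, D25 or D67.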

How the results depend on the processing

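The number of members called at an FDR of 0.1 was 0 in all 5 comparisons under every alternative run. The medians kept their sign in the Low run comparison (0.07 to 0.26), the interaction (-0.25 to -0.12) and the sedentary comparison (0.07 to 0.17), and also with each mouse of the groups compared left out in turn (0.08 to 0.25, -0.30 to -0.14 and 0.07 to 0.13). The members and the respiratory chain list without D9, D52, D53, D62, D68 or D98 were chosen for repeat fits after seeing the data, as were fits without each mouse of the other groups, where these medians were 0.18 to 0.19 in Low and 0.11 in sedentary mice. In High mice the median changed sign, from -0.09 in voom to 0.03 with upper quartile scaling. The median of the members less that of all genes moved by less than 0.02 between TMM, RLE and upper quartile scaling, an alternative chosen after seeing the data. The count of members at an unadjusted p under 0.05 in Low mice was 1 and moved to 0 in voom and without D9 and D62 (chosen after seeing the data), 5 with upper quartile scaling, 2 with no count filter and 3 with at least 10 counts in every mouse. In High mice it moved from 0 to 1 in voom and 2 with length and GC offsets, for sedentary mice from 0 to 1 in voom and in a fit to only the groups compared, and for the interaction from 2 to 1 without D9 and D62. With each mouse of the groups compared left out in turn, these counts ran from 0 to 5 in Low and from 0 to 1 in High mice, from 0 to 7 for the interaction, from 0 to 2 for sedentary mice and from 0 to 1 after running. The 7 came without D53. With each mouse of the other groups left out, they ran from 0 to 5 in Low mice and from 0 to 1 for sedentary mice, and were 0 in High mice and after running. For none of these refits was the share of all genes at that threshold counted, so the counts have no background beside them. The High run median ran from -0.1184 to 0.0459, and that of High against Low after running from -0.16 to 0.02. The permutation test was repeated with pseudocounts of 0.1 and 5 for 5 genes only. For 4 of these, whose groups did not overlap, p could not move, and for Timm17b it was 0.0857 with both. It was not repeated with a mouse left out, where 3 against 4 mice cannot fall under 0.05. No paired analysis was possible because the labels give no replicate number shared between groups. Depth limits mainly Tomm6, Pam16 and Timm8a1, with at most 52 counts in a mouse. The cause of these changes was not tested.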
